A study of Homo sapiens with 31 samples.

Results

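The nuclear-encoded subunits of the respiratory chain were read in NALM-6, an established cell line of B-cell precursor acute lymphoblastic leukemia. Protein-coding genes were taken by symbol: the NDUFA, NDUFB, NDUFC, NDUFS and NDUFV genes, the UQCR genes and CYC1, SDHA to SDHD, the COX4 to COX8 genes and the ATP5 genes, with the NDUFAF assembly factors left out. Of the 30667 genes in the table of unique molecular identifiers (UMIs), 86 met this rule: 37 of complex I, 4 of complex II, 10 of complex III, 14 of complex IV and 21 of complex V. NDUFA4 and its relative NDUFA4L2 were counted with complex IV, since NDUFA4 is a subunit of that complex. By level, 84 of the 86 could be tested, and the other two were COX7B2 with 1 UMI in all samples and ATP5MF-PTCD1 with 3.

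The cells carried 1 of 4 lentiviral constructs, in which a control shRNA (sh-CTRL) or sh-XIAP was expressed from the EF1a or the SFFV promoter, within the transcript of a red fluorescent protein. EF1a/sh-XIAP stands for moderate XIAP KD and SFFV/sh-XIAP for strong XIAP KD, and each was compared with sh-CTRL under its own promoter. All samples derive from 1 cell line. For its competitive assays the study marked XIAP KD cells with eGFP and control cells with mTagBFP. Its methods for the profiled cells do not name these markers. If the profiled cells carried them, the fluorochrome and the KD cannot be told apart. Cells were sampled 4, 10 and 13 days after transduction: 3, 3 and 3 samples of EF1a/sh-CTRL, 2, 2 and 3 of EF1a/sh-XIAP, 3, 2 and 2 of SFFV/sh-CTRL, and 2, 3 and 3 of SFFV/sh-XIAP. The sample labels have them kept in vitro, whereas the series text has them isolated from mouse bone marrow. No label says that samples of a group came from separate cultures, so p-values measure the spread between these samples, which may be technical.

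The respiratory chain sits in the inner mitochondrial membrane. Complexes I and II pass electrons from NADH and succinate to ubiquinone, complex III passes them on to cytochrome c, and complex IV hands them to oxygen, while complex V, the ATP synthase, uses the proton gradient that complexes I, III and IV build. Most subunits are encoded in the nucleus and imported, a few are encoded by the mitochondrial genome, and complex II is encoded by nuclear genes alone. Transcription factors of the NRF1 and ETS families are known to bind the promoters of many of these nuclear genes.

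Short stretches of promoters are shown for 2 motifs, the cores bound by the factor families named above, each of which most of the matched members lacked in the window searched. In RefSeq promoter windows on GRCh38.p14, from 250 bases before to 50 bases after the start of a gene, 67 of the 86 members were matched. The NRF1 core GCATGCGC, on either strand, was present in 13 of the 67 (19.4%) and in 894 of 27305 windows in all (3.27%). The ETS core CCGGAAG, on either strand, was present in 20 of the 67 (29.9%) and in 2913 windows (10.7%). Neither core is contained in the other. Capitals mark the core in the sequences that follow, written 5′ to 3′ on the strand of the gene. They stand for 1 gene of each complex, and SDHD carried both cores:
NDUFB4, complex I, chr3:120596171-120596194 on the plus strand: cacttcgcGCATGCGCatatcacc
SDHD, complex II, chr11:112086757-112086780 on the plus strand: gtgtttgcGCATGCGCgacgggtg
SDHD, complex II, chr11:112086788-112086810 on the plus strand: cctctcgaCTTCCGGttcaccca
UQCRQ, complex III, chr5:132866580-132866602 on the plus strand: ggtatctcCCGGAAGttacctca
COX6B1, complex IV, chr19:35648303-35648325 on the plus strand: tctctcagCTTCCGGctggtagt
ATP5MC2, complex V, chr12:53676108-53676131 on the minus strand: cgggtcacGCATGCGCtgagcctt
The NRF1 core was found in 5 members of complex I, 2 of complex II, 2 of complex IV and 4 of complex V, and the ETS core in 5, 2, 3, 5 and 5 members of complexes I to V. A match of letters is a description and does not show that a factor binds there.

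The samples held between 312852 and 1153668 UMIs (median 603822), and the strong KD libraries of days 10 and 13 were deeper (median 708866.5) than those of SFFV/sh-CTRL (median 464457). All 14 B-cell precursor markers had UMIs, summing to between 5315 and 6085 CPM (UMIs of a gene scaled to a common library total, per 1e+06 UMIs) in a sample. Markers of T cells, myeloid cells and erythroid cells held 14, 132 and 28 UMIs over all samples. XIAP, the target of the shRNA, was at a median of 10.5 CPM with EF1a/sh-CTRL (3.81 to 18.1), 9.52 CPM with EF1a/sh-XIAP (7.63 to 11.5), 10.5 CPM with SFFV/sh-CTRL (4.5 to 15.4) and 8.15 CPM with SFFV/sh-XIAP (6.35 to 14.6) at days 10 and 13, with overlapping samples and between 2 and 14 UMIs in each. At day 4 it ranged from 7.12 to 16.1 CPM, from 9.19 to 12.7 CPM, from 7.21 to 7.55 CPM and from 8.02 to 9.26 CPM in the same order. Its log2 fold change was −0.26 (SE 0.395) with strong and −0.17 (SE 0.367) with moderate KD, far from the threshold (adjusted p = 0.975 and 0.994 from limma), so that the transcript does not check the labels. The study itself measured the KD as protein, by Western blot of NALM-6 cells with either promoter.

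The 86 members took 1.27% of all UMIs. Their levels, as CPM, summed to 12715 ± 385 (SD, n = 31), between 11920 and 13689 in single samples. Complex I held 3912 ± 171 CPM, complex V 3792 ± 134 CPM, complex IV 2827 ± 74.7 CPM, complex III 1906 ± 79.7 CPM and complex II 279.6 ± 29.6 CPM. The protocol reads the 3′ end of a transcript and counts 1 UMI per molecule, so that CPM can be compared between genes without division by length. The coefficient of variation over samples was 4.37% for complex I against 2.1% from counting alone, and 10.6% against 7.86% for complex II, which held the fewest UMIs.

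**Figure D1:**
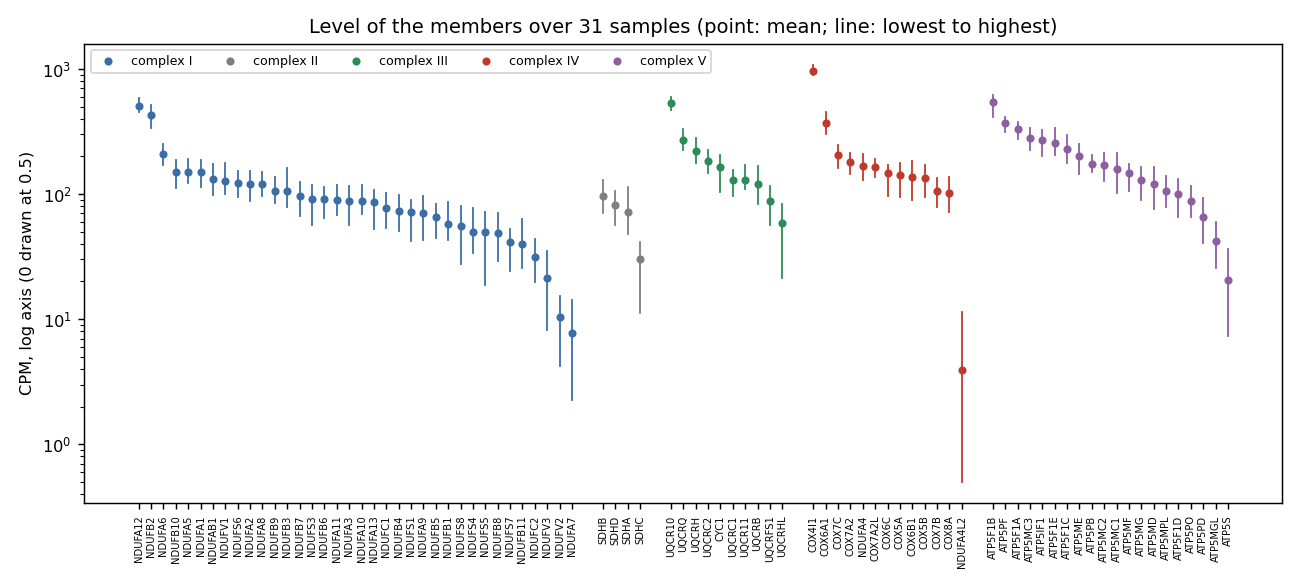
Mean level of each member over 31 samples in CPM on a log axis, grouped by complex, with lines from the lowest to the highest sample (a lowest sample of 0 is drawn at 0.5 CPM; members with under 50 UMIs and 1 other member are not drawn). COX4I1 was highest at 970 CPM, and NDUFA4L2 was lowest among the members tested at 3.89 CPM.

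Within complex I, NDUFA12 and NDUFB2, 2 accessory subunits, were highest at 507 ± 30.1 CPM and 425 ± 38.2 CPM, and NDUFA7, another accessory subunit, was lowest at 7.81 ± 3.39 CPM (SD, n = 31). The core subunits that hold the flavin and the iron-sulfur clusters or shape the quinone site spread widely: NDUFV1 was at 128 CPM, NDUFS3 at 91.8 CPM, NDUFS1 at 71.7 CPM, NDUFS8 at 55.4 CPM and NDUFS7 at 41.3 CPM. NDUFV2 was at 10.4 CPM, with 224 UMIs, but its pseudogene NDUFV2P1, 98.1% identical over 694 aligned bases, held 946 UMIs. The 2 cannot be told apart with certainty by reads from the 3′ end, so the level of NDUFV2 is uncertain. In complex II, SDHB (iron-sulfur subunit) was at 96.6 ± 14.0 CPM, SDHD (membrane anchor) at 81.1 ± 10.4 CPM, SDHA (flavoprotein) at 71.8 ± 13.2 CPM and SDHC (the other membrane anchor) at 30 ± 6.59 CPM. Every sample of SDHC (11.1 to 41.3 CPM) lay below every sample of the others, whose ranges overlapped.

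Complex III was led by the small subunits UQCR10 at 538 ± 35.5 CPM and UQCRQ at 271 ± 23.5 CPM. Its catalytic subunits were lower, CYC1 (cytochrome c1) at 165 ± 21.9 CPM and UQCRFS1 (the Rieske iron-sulfur protein) at 88.2 ± 14.6 CPM. The hinge protein UQCRH was at 221 CPM and its copy UQCRHL, 97.9% identical over 516 bases and the lowest of the complex, at 58.7 CPM, 2 values that share reads to an unknown extent. Complex IV was led by COX4I1, the ubiquitous isoform of subunit 4, at 970 ± 45.7 CPM and COX6A1, the liver-type isoform of subunit 6A, at 368 ± 36.8 CPM. COX6A1P2, 98.8% identical to COX6A1 over 330 bases, held a further 3457 UMIs beside the 7584 of COX6A1. The other isoforms detected were COX7A2 at 181 CPM, COX7A2L at 164 CPM, COX6B1 at 138 CPM, COX7B at 106 CPM and COX8A at 101 CPM. NDUFA4 was at 167 CPM and NDUFA4L2, known as a hypoxia-induced relative, at 3.89 CPM. The muscle, lung or testis isoforms COX4I2, COX6A2, COX6B2, COX7A1 and COX8C were not among the 86 members, though the rule would take their symbols.

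Complex V was led by the catalytic beta subunit ATP5F1B at 542 ± 41.2 CPM and by ATP5PF, coupling factor 6, at 372 ± 27.6 CPM. The alpha subunit ATP5F1A was at 328 ± 24.2 CPM and the inhibitor of ATP hydrolysis ATP5IF1 at 270 ± 33.4 CPM. Of the 3 genes for the proton-carrying c subunit, ATP5MC3 was at 280 ± 25.5 CPM, ATP5MC2 at 169 ± 18.5 CPM and ATP5MC1 at 158 ± 22.6 CPM, so that every sample of ATP5MC3 stood above every sample of the others, and the lower pair overlapped. ATP5S, since renamed DMAC2L and taken here by its symbol, was the lowest tested at 20.6 CPM.

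Across constructs, the summed level of the members was higher with strong KD at days 10 and 13 than in its control. It ranged from 12718 to 13689 CPM (median 13233) in the 6 SFFV/sh-XIAP samples, against 12796, 12796, 12211 and 12261 CPM in the 4 SFFV/sh-CTRL samples. Of the 24 pairs of samples, the strong KD sample was higher in 22, and the groups overlapped through 1 sample, SFFV/sh-XIAP day 10 replicate 2, the shallowest of all libraries. The ratio of the means was 1.055 (13207 ± 311 CPM, n = 6, against 12516 ± 324 CPM, n = 4). By complex it was 1.055 for I, 1.151 for II, 1.065 for III, 1.036 for IV and 1.058 for V. At day 10 alone the ratios of complexes I to V were 1.007, 1.161, 1.004, 1.01 and 1.044, and at day 13 alone 1.105, 1.142, 1.13, 1.063 and 1.072, with 3 samples against 2 on each day. The day 13 ratio of complex II rested on 1 sample, SFFV/sh-XIAP replicate 2, at 382.5 CPM. The other strong KD samples of that day were at 280.1 and 256.8 CPM, and the controls at 256.4 and 280.6 CPM. In the sums, the difference of complexes I, III and IV thus lay at day 13. From day 10 to day 13 the SFFV/sh-CTRL means of these sums fell from 3985 to 3797, 1925 to 1762 and 2846 to 2740 CPM. Those of SFFV/sh-XIAP rose from 4015 to 4196, 1933 to 1992 and 2875 to 2914 CPM, so that both arms moved. With EF1a/sh-CTRL the means were 3877 and 3851, 1888 and 1888, and 2851 and 2851 CPM. The mean log2 CPM of the complex IV members (TMM-scaled) did not follow its sum. With strong KD it was 7.19 against 7.1 in SFFV/sh-CTRL at day 10, and 7.24 against 7.23 at day 13. For all members together the ratio was 1.022 at day 10 and 1.09 at day 13, and 0.984 at day 4 with 2 samples against 3. With moderate KD the members summed to 12433 ± 327 CPM (n = 5) against 12605 ± 211 CPM (n = 6), a ratio of 0.986, and the samples of the groups were mixed, with 10 of 30 pairs higher. By complex the ratio was 0.979, 0.994, 1.012, 0.978 and 0.987. At day 10 alone, with 2 samples against 3, the moderate KD ratios of complexes I to V were 0.939, 0.854, 1.006, 0.984 and 0.961. At day 13 alone, with 3 against 3, they were 1.008, 1.097, 1.016, 0.973 and 1.005. For all members together the moderate KD ratio was 0.964 at day 10 and 1.002 at day 13. The sums are a description of the module and were not tested. In bulk samples, fewer cells that express a gene and less RNA of it per cell cannot be told apart.

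The summed level also moved with the depth of the library. Over the 31 samples it correlated with the log2 total of UMIs (Pearson's r = 0.625, permutation p = 0.00016; Spearman's rho = 0.689, permutation p = 0.0001), and r was 0.667 without the 2 samples farthest from the median depth. Over the 16 sh-CTRL samples alone r was 0.828 (permutation p = 4e-05) and rho 0.841 (permutation p = 8e-05), and r without the 2 farthest was 0.789. The 2 relations had adjusted p of 0.00016 and 8e-05 for r. With log2 total UMIs as a covariate, the median log2 fold change of the members with strong KD was 0.05 in place of 0.07, and the part of depth in the difference was not tested.

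No single member passed the threshold used, an adjusted p of at most 0.25, with strong KD: 0 of 84 by limma-voom, 0 by edgeR and 0 by DESeq2. Among all 17683 genes tested, 0.0792% were called by limma. At an unadjusted p under 0.05 there were 7 members by limma (8.33%, against 5.59% of all genes), 7 by edgeR and 3 by DESeq2, and all 7 were higher with strong KD. The median log2 fold change was 0.07, against −0.02 over all genes tested, and 57 of 84 members were above 0 (67.9%, against 47.3% of all genes). This median was 0.05 at day 10 alone and 0.13 at day 13 alone, and it rose to between 0.11 and 0.12 without SFFV/sh-CTRL day 10 replicate 1 or 2, SFFV/sh-XIAP day 10 replicate 2 or SFFV/sh-XIAP day 13 replicate 1. Among protein-coding genes above 20 CPM, a closer match in level chosen after the data were seen, the median was 0.02 and 54% were above 0. The medians of complexes I to V were 0.07, 0.13, 0.10, 0.07 and 0.06. The 95% interval of the fold change lay within 1.5-fold either way for 73 of the 84 members and within 2-fold for 81.

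**Figure D2:**
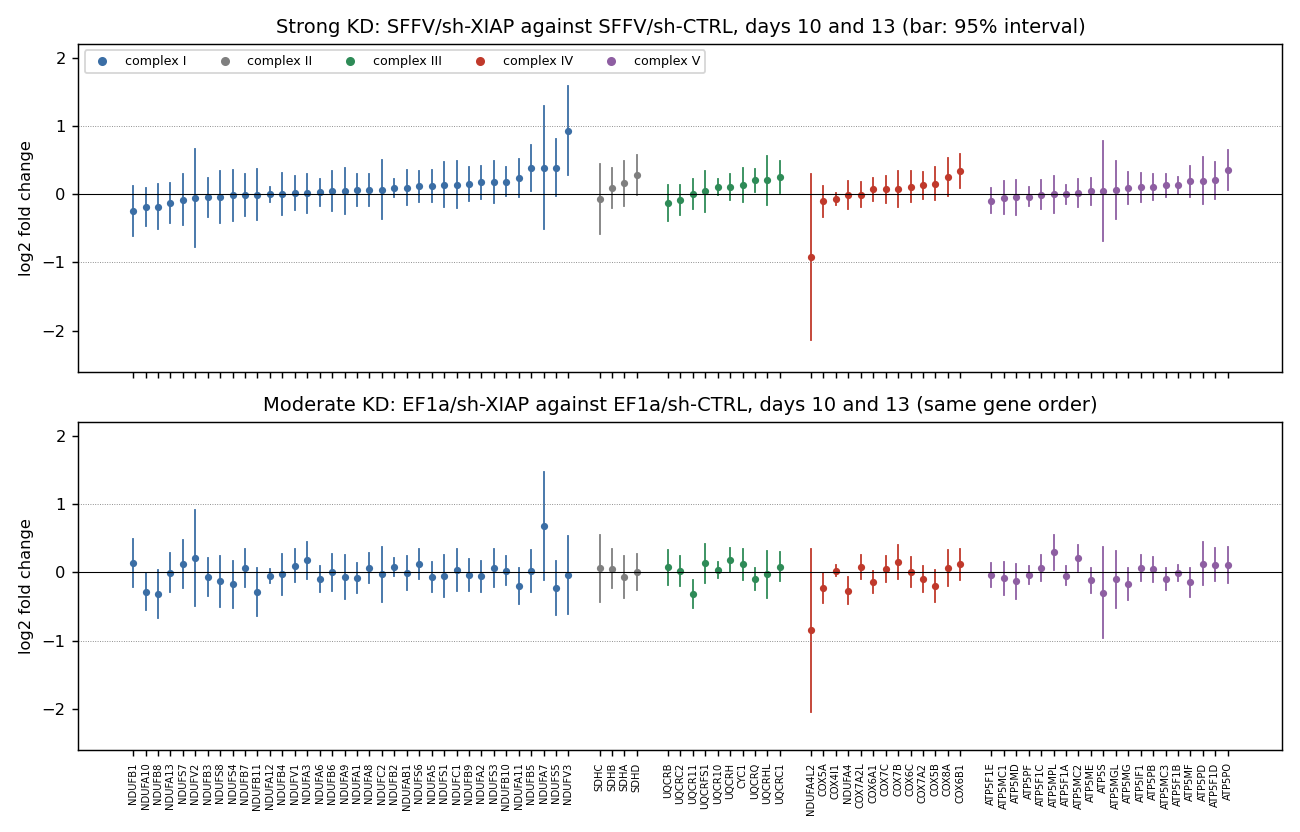
Log2 fold change with its 95% interval (limma-voom) of the members tested (1 of the 84 is not drawn), by complex, for strong KD (top, genes in order of their value) and moderate KD (bottom, same order) at days 10 and 13. Most intervals hold 0; NDUFV3 stands highest with strong KD at 0.93, and the wide intervals belong to members with few UMIs such as NDUFA4L2 and NDUFA7.

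NDUFV3 (ENSG00000160194, chromosome 21, from 42879644 to 42913304 on GRCh38), an accessory subunit of the NADH-oxidizing arm of complex I, had the smallest p with strong KD. It ranged from 20.9 to 35.2 CPM (median 29.1) in the 6 SFFV/sh-XIAP samples and was at 13.5, 17.3, 14.2 and 8.25 CPM in the SFFV/sh-CTRL samples. The groups did not overlap, but both EF1a constructs spanned the gap, at 11.3 to 32.5 CPM with EF1a/sh-CTRL and 11.5 to 28.6 CPM with EF1a/sh-XIAP. The log2 fold change was 0.93 (SE 0.322), with an adjusted p of 0.715 in limma and 0.392 in edgeR, over 121 and 24 UMIs.

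COX6B1, the subunit that holds the complex IV dimer on its outer side, ranged from 138 to 158 CPM (median 152) with strong KD and was at 90, 129, 105 and 142 CPM in the controls. One control sample reached into the range of the KD samples, and the log2 fold change was 0.34 (SE 0.124, adjusted p = 0.717 from limma). UQCRQ ranged from 276 to 328 CPM (median 291) against 250, 256, 254 and 268 CPM, a log2 fold change of 0.20 (SE 0.0829, adjusted p = 0.79 from limma). ATP5PO, which links the catalytic head of the synthase to its stalk, ranged from 86.3 to 115 CPM (median 91.3) against 76.5, 84.6, 68.4 and 66.0 CPM, with a log2 fold change of 0.35 (SE 0.146, adjusted p = 0.79 from limma). UQCRQ and ATP5PO did not overlap between the groups, and the same held for NDUFS5, an accessory subunit of complex I (47.6 to 71.2 CPM against 38.3 to 45.6 CPM), and SDHD (79.2 to 100 CPM against 57 to 74.3 CPM). In all, 5 of 84 members (5.95%) had every strong KD sample above every control sample, against 0.735% of all genes, and 0 members had every sample below, against 0.492% of all genes. Among protein-coding genes above 20 CPM the share with every sample above was 0.989%. For ATP5PO, UQCRQ, NDUFS5 and SDHD, the EF1a/sh-CTRL samples (73.6 to 109 CPM, 242 to 284 CPM, 34.8 to 53.4 CPM and 61.2 to 95.5 CPM) reached into the range of strong KD.

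On the lower side, COX4I1 had the smallest p with strong KD. It ranged from 893 to 1077 CPM (median 937) against 910 to 1018 CPM (median 1002), and the log2 fold change was −0.07 (SE 0.0441, adjusted p = 0.921 from limma). It was −0.01 at day 13 alone and between −0.09 and −0.03 with 1 sample left out, nearest to 0 without SFFV/sh-XIAP day 13 replicate 2. NDUFA4L2 had 19 UMIs in 6 samples, at 0 to 7.52 CPM, against 11 UMIs in 4 samples, at 1.92 to 11.4 CPM. The samples overlapped for both genes, and the fitted log2 fold change of NDUFA4L2, −0.91 (SE 0.603), rests on these few molecules. Among core subunits, ATP5F1A was at 0.00 (SE 0.0684), NDUFV1 at 0.01 (SE 0.124) and UQCRFS1 at 0.04 (SE 0.151) on the log2 scale.

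With moderate KD, 0 of 84 members were called by limma, edgeR or DESeq2 (0.017% of all genes by limma). At an unadjusted p under 0.05 there were 7 members by limma, 8 by edgeR and 3 by DESeq2, of which 3 were higher and 4 lower by limma, against 4.63% of all genes. The median log2 fold change was −0.01, against 0.01 over all genes, and 40 of 84 members were above 0 (47.6%, against 51.4% of all genes). UQCR11, a small subunit of complex III, was at 115, 121, 133, 110 and 111 CPM with EF1a/sh-XIAP and ranged from 125 to 172 CPM (median 147) with EF1a/sh-CTRL. One KD sample lay above the lowest control, and the log2 fold change was −0.31 (SE 0.103, adjusted p = 0.992 from limma). EF1a/sh-CTRL was the high group of the 4, since SFFV/sh-CTRL and SFFV/sh-XIAP were at 121 ± 3.77 CPM (n = 4) and 123 ± 10.7 CPM (n = 6).

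NDUFA4 was at 131, 136, 164, 161 and 148 CPM with moderate KD and ranged from 167 to 202 CPM (median 181) in its control. Every KD sample was below every control sample, which held for 1 of 84 members (1.19%, against 0.215% of all genes), while 0 members were all above (0.209% of all genes). The log2 fold change was −0.27 (SE 0.0975, adjusted p = 0.992 from limma). At day 4 NDUFA4 was at 157 and 158 CPM with EF1a/sh-XIAP against 184 to 210 CPM in 3 EF1a/sh-CTRL samples, also without overlap (log2 fold change −0.30, SE 0.122, adjusted p = 0.976 from limma). With 2 samples against 3, such a gap arises more readily by chance than at days 10 and 13. Its share over all genes was not counted. The other control spanned the EF1a/sh-XIAP values at both times. SFFV/sh-CTRL was at 149, 153 and 195 CPM at day 4, and at 151, 183, 185 and 130 CPM at days 10 and 13. With strong KD NDUFA4 was at 159 ± 12.6 CPM (n = 6) against 162 ± 26.5 CPM (n = 4), a log2 fold change of −0.01 (SE 0.104). The members with the smallest p on the higher side, ATP5MPL (a small membrane subunit of the synthase) and ATP5MC2, had log2 fold changes of 0.29 (SE 0.126) and 0.21 (SE 0.0962), both with an adjusted p of 0.992 from limma. ATP5MPL was at 113, 105, 116, 99.6 and 124 CPM against 78.2 to 110 CPM, and the samples of both genes overlapped with their controls.

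The difference between the KD effects was tested directly. No member passed (0 of 84 by limma, edgeR and DESeq2, against 0.00566% of all genes by limma), and 7 had an unadjusted p under 0.05 by limma, 9 by edgeR and 1 by DESeq2, all 7 with the higher value in strong KD (5.06% of all genes). UQCRQ had the smallest p of these, with a difference of 0.31 on the log2 scale (SE 0.115, adjusted p = 0.964 from limma). The median difference was 0.10, against −0.025 over all genes, and it was above 0 for 62 of 84 members (73.8%, against 47.2% of all genes). It was 0.06 with log2 total UMIs as a covariate and 0.18 at day 10 alone, and between 0.15 and 0.16 without EF1a/sh-CTRL day 10 replicate 3, EF1a/sh-CTRL day 13 replicate 3, EF1a/sh-XIAP day 13 replicate 3 or SFFV/sh-CTRL day 10 replicate 2. Between the promoters, SFFV/sh-CTRL against EF1a/sh-CTRL, again 0 of 84 members passed by any of the tools (0.00566% of all genes by limma), and 1 had an unadjusted p under 0.05 (1.19%, against 5.15% of all genes; 1 by edgeR and 0 by DESeq2). That member was UQCR11 at −0.25 (SE 0.111, adjusted p = 0.923 from limma). The SFFV/sh-CTRL samples enter both this comparison and that of strong KD.

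At day 4 the arms were small, 2 KD samples against 3 controls. With strong KD, 0 of 84 members passed by limma, edgeR or DESeq2 (0.0109% of all genes by limma), and 6 had an unadjusted p under 0.05 by limma, all lower (4.73% of all genes; 5 by edgeR, 0 by DESeq2). They were NDUFB7, NDUFB8, COX4I1, NDUFA4L2, ATP5IF1 and ATP5MPL. COX4I1 was at 905 and 919 CPM against 986, 977 and 956 CPM, without overlap, a log2 fold change of −0.10 (SE 0.0492, adjusted p = 0.979 from limma). The share of all genes without overlap was not counted at this day. With moderate KD, 0 of 84 passed by limma, edgeR or DESeq2 (0.0491% of all genes by limma), and 4 had an unadjusted p under 0.05 (4.5% of all genes; 4 by edgeR, 0 by DESeq2). NDUFB2 had the smallest p of any member in any comparison, at 465 and 485 CPM against 396, 394 and 414 CPM, a log2 fold change of 0.26 (SE 0.0704, adjusted p = 0.583 from limma and 0.993 from edgeR). At days 10 and 13 the groups overlapped, at 382 to 441 CPM with moderate KD and 335 to 419 CPM in its control.

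Over time, the summed level differed between days by less than the spread between samples. All members together summed to 12707 ± 321 CPM at day 4 (n = 10), 12708 ± 406 CPM at day 10 (n = 10) and 12730 ± 452 CPM at day 13 (n = 11). Between days 13 and 4, 0 of 84 members passed by limma, edgeR or DESeq2, against 0.515% of all genes by limma, and 4 had an unadjusted p under 0.05 (6.46% of all genes; 5 by edgeR, 3 by DESeq2). SDHA had the smallest p: it ranged from 54.1 to 80.7 CPM (median 64.9) at day 4, from 47.6 to 91.1 CPM (median 67.8) at day 10 and from 67.9 to 113 CPM (median 77.8) at day 13. The days overlapped, and the log2 fold change from day 4 to day 13 was 0.26 (SE 0.0903, adjusted p = 0.478 from limma). With the UMIs of its pseudogenes added, which held 31.6% of the sum, it became 0.31 and passed (adjusted p = 0.13 from limma). NDUFB4, an accessory subunit of complex I, was next on the higher side with 0.22 (SE 0.0929, adjusted p = 0.697 from limma), from a median of 69.7 to 82.6 CPM. On the lower side ATP5PD, subunit d of the peripheral stalk, and NDUFA1, an accessory subunit of complex I, were at −0.19 (SE 0.097, adjusted p = 0.79 from limma) and −0.13 (SE 0.0651, adjusted p = 0.796 from limma).

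Between days 10 and 4, 0 of 84 members passed by the 3 tools (0.26% of all genes by limma), and 6 had an unadjusted p under 0.05 by limma, all lower (6.3% of all genes; 6 by edgeR, 4 by DESeq2), with NDUFS1 at −0.28 and ATP5PD at −0.31 the lowest. Between days 13 and 10, 0 of 84 passed by the 3 tools (0.0226% of all genes by limma), and 6 had an unadjusted p under 0.05 by limma, 4 higher and 2 lower (5.98% of all genes; 4 by edgeR, 4 by DESeq2). The strong KD effect itself was compared between days 13 and 4 in the same way. By limma 0 genes in all passed (0% of all genes) and by edgeR 5, none of them among the 84 members, and DESeq2 called 0. At an unadjusted p under 0.05 there were 6 members by limma, all with the higher value at day 13 (5.4% of all genes; 7 by edgeR, 1 by DESeq2), led by NDUFB7 at 0.77 (SE 0.263, adjusted p = 0.809 from limma). The median over the members was 0.14, against −0.01 over all genes, and 64 of 84 were above 0 (76.2%, against 49.5% of all genes).

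The genes around the chain were read by lists written by hand. With strong KD at days 10 and 13, 0 of 53 assembly factors, 0 of 13 subunits of the mitochondrial genome, 0 of 75 tested mitochondrial ribosomal proteins, 0 of 16 tested enzymes of the tricarboxylic acid cycle, 0 of 8 carriers and 0 of 13 tested regulators were called in either direction by limma. Their median log2 fold changes were 0.05, 0.10, 0.06, 0.03, −0.02 and 0.14, and the genes with the smallest p were COX18 (a complex IV assembly factor, −1.24), MT-ND2 (a complex I subunit, 0.17), MRPS34 (0.30), PDHA1 (0.19), SLC25A6 (−0.08) and MYC (−0.12). The mitochondrial ribosomal proteins summed to 6224 ± 174 CPM (n = 6) against 5875 ± 187 CPM (n = 4), a ratio of 1.059 with every strong KD sample above every SFFV/sh-CTRL sample, close to the 1.055 of the nuclear subunits. The EF1a/sh-CTRL samples of these days, at 5788 to 6156 CPM, reached into the strong KD range, which began at 6081 CPM. The relation of this sum to library depth was not tested. The 13 subunits of the mitochondrial genome summed to 16441 ± 1144 CPM against 15794 ± 430 CPM, with overlapping samples. By complex the ratio of these sums was 1.096 for I, 1.057 for III, 1.015 for IV and 1.103 for V, again with overlap. At an unadjusted p under 0.05 by limma there were 5 of the 13, all higher (5.59% of all genes). With moderate KD 0 genes of these lists were called at days 10 and 13 by limma.

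Some subunits of the mitochondrial genome did pass the threshold elsewhere by limma. Between days 13 and 4, limma called 4 of the 13 lower and 1 higher, led by MT-CO2, a catalytic subunit of complex IV, at −0.15 (SE 0.0272, adjusted p = 0.00227 from limma). Between days 10 and 4 it called 1 lower and 1 higher, MT-CO2 being at −0.22 (SE 0.0316), and with moderate KD at day 4 it called 2 higher, MT-CO2 being at 0.16 (SE 0.0282, adjusted p = 0.00509 from limma). The calls with moderate KD at day 4 rest on limma alone, which called 9 of all genes tested, while edgeR and DESeq2 called 0. The nuclear-encoded members of complex IV had median log2 fold changes of −0.04, −0.06 and −0.02 in the same 3 comparisons, with 0 of 13 called in each. Whether the mitochondrial and the nuclear subunits differed in their changes was not tested.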

How the data were processed

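NALM-6 cells (31 samples, 4 constructs, days 4, 10 and 13) were profiled by prime-seq, a bulk form of SCRB-seq. The authors deposited UMI counts per gene, not normalized. The submitters' processing notes name STAR 2.6.0a and builds of human and mouse; which tool and annotation gave the counts is not given in the sources used here. Symbols and coordinates came from GENCODE 29 on GRCh38, which held 29928 of 30667 identifiers.

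Genes above 1 CPM in at least 1 of 3 samples of a fit were tested with limma-voom (limma 3.58.1, TMM from edgeR 4.0.16, R 4.3.3) on construct and day, with Benjamini-Hochberg adjustment over all genes. The methods of the study name edgeR, limma, the filter and the threshold, for days 10 and 13, whereas voom, TMM and the terms of the model were chosen here. Late days, day 4 and all samples were fitted apart. Levels are CPM on library totals, and pseudogene counts were not added. Alternatives were edgeR's quasi-likelihood test, DESeq2 1.42.0, other scalings and filters, thinned counts, depth as a covariate, pseudogene counts added, single days and samples left out. Genes were named by rule (the 2 smallest p in each direction, the highest and lowest of each complex, isoform families, complex II and core subunits); others, such as members without overlap, were picked after their values were seen. Members and lists were chosen with earlier results of these data known. Chi-square per gene between the 26 replicate pairs was 1.07 to 2.42, and no library was merged or left out. The study excluded PCA outliers that it does not name, and whether any of them is among these libraries is not known. The values of 1 member are not reported here singly, though it is part of all sums and counts.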

Additional observations from a re-analysis of the deposited data

Results flagged for a closer look

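The summed level of complex V in EF1a/sh-CTRL day 10 replicate 1 was 3886 CPM, whereas the next of the 6 EF1a/sh-CTRL samples of days 10 and 13 was at 3720 CPM. The gap made up 0.691 of the whole range, and for 6 samples Dixon's 95% critical value is 0.625. It was 1 of 24 groups examined, and chance flags about 1 group in 20.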

How the results depend on the processing

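In each of the 10 comparisons 0 of the tested members were called, and this count moved in 3 comparisons: 1 member was called with moderate KD at day 4 and 9 between days 10 and 4 without a filter on low counts, and 1 (SDHA) between days 13 and 4 with pseudogene counts added. The cause was not tested. Leaving out 1 sample at a time gave counts from 0 to 0 in every comparison; where this left an arm of day 4 with 1 sample, that sample was assumed to vary like the other groups. NDUFA4L2 reversed with strong KD in thinned counts (0.1519) and at day 10 alone (0.0944), and ATP5MC2 with moderate KD at day 10 alone (−0.0364). The summed level of complex IV with moderate KD, a ratio of 0.978, moved to 0.945 as mean log2 CPM on library totals. Set against the median of all genes in the same fit, the median log2 fold change of the members with strong KD was 0.0876, and ranged from 0.049 (day 10 alone) to 0.2197 (no filter) and from 0.0636 to 0.1091 with 1 sample left out. The raw median ranged from 0.0501 to 0.1272, and from 0.07 to 0.1208 with 1 sample left out. For the strong KD effect at day 13 against day 4 it ranged from 0.09 (DESeq2 size factors) to 0.1742. With a replicate block 0 members were called in each comparison, and the strong KD median was 0.0615. The numbers gave no sign of pairing samples (mean correlation of residuals −0.000553 over 149 pairs of the same number and 0.000302 over 290 others). No pair of either kind exceeded 0.0264, so this check cannot show that paired samples were absent. Members under about 10 CPM, NDUFA7 and NDUFA4L2, are limited by depth.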
